A study of Mus musculus with 9 samples.

Results

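Prostaglandin synthesis and signalling were followed through 10 genes in mouse kidneys whose ureter had been closed and reopened. The 10 genes were chosen by name: the phospholipase Pla2g4a, the cyclooxygenases Ptgs1 and Ptgs2, the terminal synthases Ptges, Ptgds and Ptgis, the prostaglandin E2 receptors Ptger1, Ptger3 and Ptger4, and the breakdown enzyme Hpgd. Of the 18217 gene symbols with a probe on the array, 9 were among these 10, with 13 probes between them. No probe was matched to Ptger1, which was not analysed here. Both Ptgs2 probes stayed below the detection limit, so 8 of the 10 genes entered the tests.

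All 9 kidneys were left kidneys of male ISAM mice, 10 weeks old on a mixed strain background, 1 array per kidney. ISAM mice (Epo-/-::3.3K-Epo3'-Tg458) lack both endogenous copies of the erythropoietin gene and carry an Epo transgene that does not replace production in the adult kidney. This model of erythropoietin-deficiency anaemia is shared by every group, the controls included. Kidneys of the Clip group had 2 days of obstruction by a vascular clip on the ureter (n = 3). In the ClipR-14 group the clip was taken off after 2 days and the kidney was left for a further 12 days (n = 3). The control arm joined 2 sham-treated kidneys and 1 untreated kidney, and the labels do not give the day after surgery on which these were taken. The labels do not say that the RNA was pooled, and each array was taken as 1 animal.

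Prostaglandins are lipid signals made on demand from arachidonic acid. Phospholipase A2 frees arachidonic acid from membranes, cyclooxygenases turn it into prostaglandin H2, and terminal synthases turn that into prostaglandin E2, D2, I2 and related products. In the kidney, prostaglandin E2 acts through the EP receptors on renal blood flow, renin release and the handling of salt and water in the thick ascending limb and collecting duct, and 15-hydroxyprostaglandin dehydrogenase, the product of Hpgd, inactivates it.

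Levels are log2 values relative to the 75th percentile of the same array, so that 0 is that percentile and a difference of 1 is a doubling. They can be compared between kidneys for 1 probe, not between genes. The 75th percentile ran from 320.4 to 439.2 intensity units over the 9 arrays, and 52.5% to 58.0% of spots were well above background. Every slide (3 in all) held an array from each arm. Slide 3, which held the untreated kidney, was scanned on the other of the 2 scan dates. Slc34a1 and Lrp2 of the proximal tubule, Umod of the thick ascending limb, Aqp2 of the collecting duct and Nphs1 of the podocyte were well above background on all arrays of each arm. Of 4 macula densa markers, Nos1 was not above background on any array. Slc12a1, also a thick ascending limb marker, and Avpr1a were above background on all 9 arrays, and Mcub on the 3 Clip arrays only. Neither Epo probe was well above background on any array.

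The first question was what 2 days of obstruction changed. Across the 17740 genes tested, 48.9% passed the threshold between Clip and control kidneys (limma, Benjamini-Hochberg-adjusted p under 0.05), 21.4% higher and 27.5% lower. Among the 8 prostaglandin genes tested, 3 were higher in Clip kidneys (Pla2g4a, Ptges and Ptger4), 3 were lower (Ptgis, Ptger3 and Hpgd) and 2 did not pass (Ptgs1 and Ptgds). The changes thus ran in both directions, with a median of 0.00 on the log2 scale against -0.09 over all genes. In 6 of the 8 genes the Clip and control arrays did not overlap, which held for 58.6% of all genes tested. Fewer cells of a type and less RNA per cell cannot be told apart in whole-kidney RNA.

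**Figure D1:**
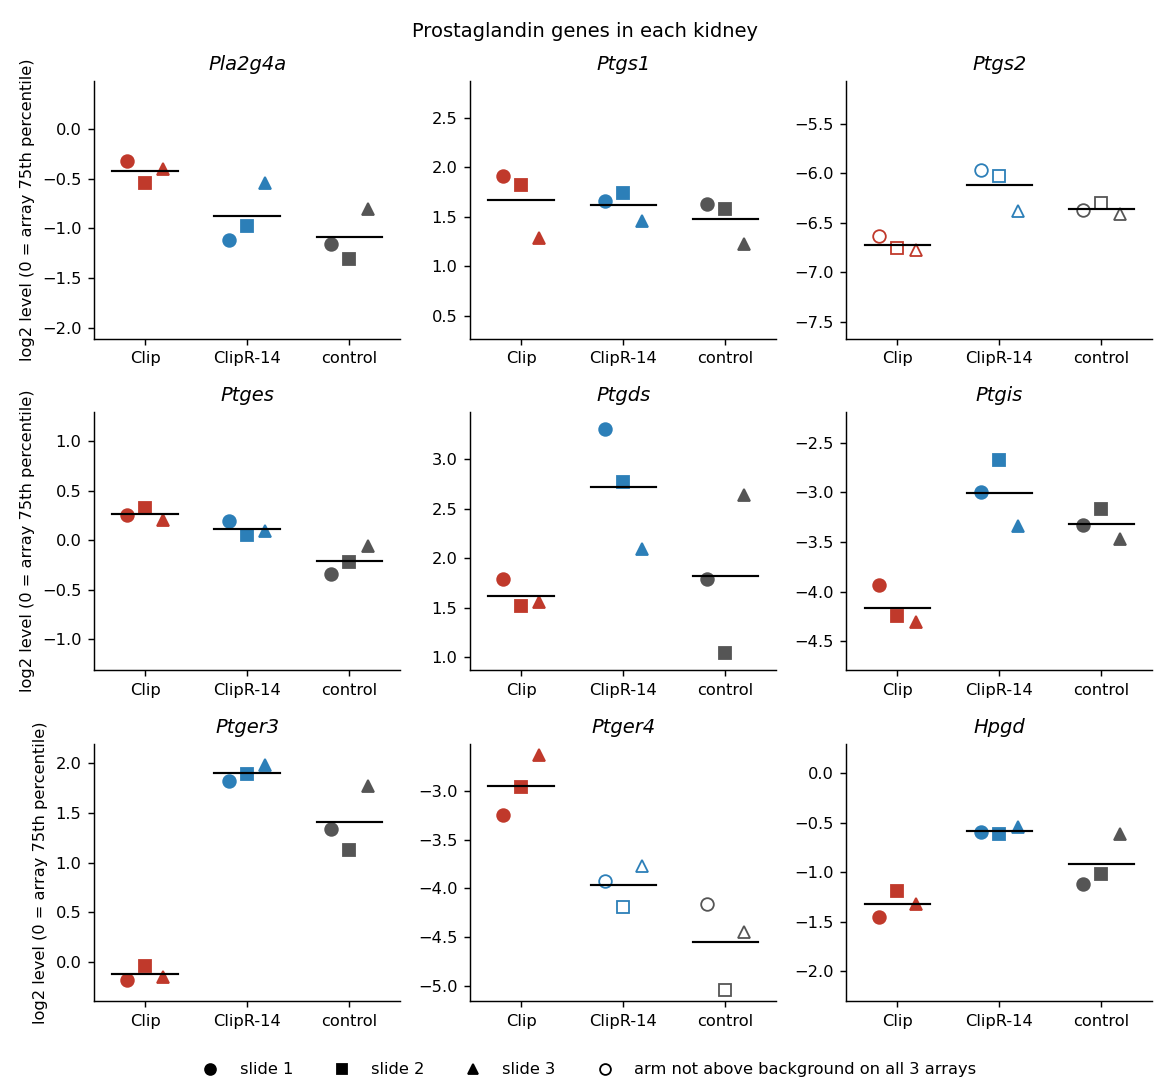
Level of each measured prostaglandin gene in each kidney, as log2 of intensity over the array's 75th percentile (vertical axis, its own range in each panel), for Clip, ClipR-14 and control kidneys. Each point is 1 array, shaped by slide, the bar is the mean of 3 arrays, and open points mark an arm whose probe was not above background on all 3 arrays. In the Ptger3 panel the Clip arrays lie at -0.18 to -0.05, below all others.

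Pla2g4a encodes cytosolic phospholipase A2, the enzyme that releases arachidonic acid after a rise in cell calcium. Its level was -0.32, -0.54 and -0.40 in the Clip kidneys, against -1.16 and -1.31 in the sham kidneys and -0.81 in the untreated kidney. All Clip arrays were above all control arrays. The gene rose 1.59-fold (log2 change 0.67 ± 0.18, SE; limma, adjusted p = 0.0136). Its other probe read -2.12, -2.15 and -1.41 in Clip kidneys, against -2.83 and -2.91 in sham and -2.52 in untreated kidneys, a change of 0.86 ± 0.21. Both probes therefore placed the Clip arm above the control arm. After release the levels were -1.11, -0.98 and -0.54 in the ClipR-14 kidneys, which overlapped the control range, and the change against control was 0.21 ± 0.18 (limma, adjusted p = 0.519).

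Ptgs1 encodes cyclooxygenase-1, the form made constitutively in collecting duct, interstitial cells and vessels. Its level was 1.91, 1.82 and 1.28 in Clip kidneys and 1.66, 1.74 and 1.46 in ClipR-14 kidneys, against 1.63 and 1.58 in sham kidneys and 1.23 in the untreated kidney. The 3 arms overlapped. The change was 0.19 ± 0.19 for Clip against control (limma, adjusted p = 0.424) and 0.14 ± 0.19 for ClipR-14 against control (adjusted p = 0.695), so no difference was shown for this gene. In each arm the array of slide 3 was the lowest.

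Ptgs2 encodes cyclooxygenase-2, the inducible form, which in the kidney is known in the macula densa and in medullary interstitial cells. It was not well above background on any of the 9 arrays with either probe, and no fold change is given. The probe printed as 10 spots per array read a mean of 3.91, 3.93 and 4.02 intensity units in Clip kidneys, 5.83, 6.05 and 15.99 in ClipR-14 kidneys and 3.88, 4.09 and 4.91 in control kidneys. The dimmest probes called well above background had 16.4 to 18.4 intensity units on Clip arrays and 16.8 to 20.1 on control arrays. On ClipR-14 arrays they had 21.7 to 27.3. The value of 15.99 was raised by 1 of its 10 spots, the only spot of this probe well above background on any array, and the SD between the spots there was 34.3. That spot carried an outlier flag and is left out of the plotted level. At this sensitivity a change of Ptgs2 could not be measured in either direction.

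Ptges encodes microsomal prostaglandin E synthase-1, the inducible enzyme that makes prostaglandin E2. Its level was 0.25, 0.33 and 0.20 in Clip kidneys, against -0.34 and -0.22 in sham kidneys and -0.06 in the untreated kidney. The Clip arrays did not overlap the control arrays, and the rise was 1.38-fold (0.47 ± 0.10; limma, adjusted p = 0.00463). The ClipR-14 kidneys read 0.19, 0.05 and 0.10 and also lay above every control array. Their change against control, 0.32 ± 0.10, did not pass (limma, adjusted p = 0.124), nor did that between ClipR-14 and Clip kidneys, -0.15 ± 0.10 (adjusted p = 0.273).

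Ptgds encodes lipocalin-type prostaglandin D synthase. Its fit had the widest SE of the 8 genes. Its level was 1.80, 1.52 and 1.56 in Clip kidneys and 3.30, 2.77 and 2.10 in ClipR-14 kidneys, against 1.80 and 1.04 in sham kidneys and 2.63 in the untreated kidney. The Clip range lay inside the control range, and the change against control was -0.20 ± 0.41 (limma, adjusted p = 0.712). Without the untreated kidney this change was 0.20. ClipR-14 kidneys were 2.14-fold above Clip kidneys with no overlap (1.10 ± 0.41), which did not pass (limma, adjusted p = 0.0614). That difference was 1.41 without the third ClipR-14 kidney (adjusted p = 0.0329), and it also passed without the untreated kidney (adjusted p = 0.0260) or without the second sham kidney (adjusted p = 0.0320). It stayed uncalled in 12 alternatives, with a limma adjusted p of up to 0.183 with single arrays left out.

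Ptgis encodes prostacyclin synthase, an enzyme of endothelium and smooth muscle whose product dilates vessels. The probe was dim, with 22.1 to 25.3 intensity units in Clip kidneys, 42.0 to 61.5 in ClipR-14 kidneys and 31.9 to 37.5 in control kidneys. Its level was -3.94, -4.25 and -4.31 in Clip kidneys and -3.00, -2.67 and -3.34 in ClipR-14 kidneys, against -3.33 and -3.17 in sham kidneys and -3.47 in the untreated kidney. Clip arrays were below all others. The gene fell 1.80-fold in Clip kidneys against control (-0.84 ± 0.18; limma, adjusted p = 0.00483) and was 2.24-fold higher in ClipR-14 than in Clip kidneys (1.16 ± 0.18; adjusted p = 0.00121). Both directions turned with normexp background correction, to 0.36 and -0.27, so the direction of Ptgis depended on how background was removed. Of 5 smooth muscle and pericyte markers, Acta2 (2.80) and Tagln (2.17) were higher in Clip kidneys than in controls, Rgs5 was lower (-0.95), and Myh11 (-0.02) and Cnn1 (0.44) did not pass. Their summed level was 80.4 to 135.7 in Clip, 26.7 to 29.0 in ClipR-14 and 20.2 to 27.1 in control kidneys. Of 5 endothelial markers 1 was higher and 1 lower, with sums of 23.0 to 27.4, 33.1 to 35.9 and 28.8 to 29.3 in Clip, ClipR-14 and control kidneys. Their part in the Ptgis values was not tested. Summed levels add the linear levels of a list's genes, in units of the array's 75th percentile. The brightest probes of a list therefore set most of its sum, here Acta2 and Tagln among the smooth muscle markers, and a sum is not a count of cells.

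Ptger3 encodes the EP3 receptor, which couples to inhibition of cyclic AMP and is known in the thick ascending limb and collecting duct, where it opposes salt and water uptake. It showed the change with the smallest adjusted p of the 8 genes. Its level was -0.18, -0.05 and -0.15 in Clip kidneys and 1.82, 1.89 and 1.98 in ClipR-14 kidneys, against 1.34 and 1.13 in sham kidneys and 1.77 in the untreated kidney. The Clip arrays lay below, and the ClipR-14 arrays above, every control array. Ptger3 fell 2.91-fold in Clip kidneys against control (-1.54 ± 0.16; limma, adjusted p = 8.58e-05). It was 4.08-fold higher in ClipR-14 than in Clip kidneys (2.03 ± 0.16; limma, adjusted p = 3.38e-05). The excess of ClipR-14 over control kidneys, 0.49 ± 0.16, did not pass (limma, adjusted p = 0.132) and was 0.67 with an adjusted p of 0.0369 when the untreated kidney was left out.

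The other Ptger3 probe read -3.72, -4.06 and -3.92 in Clip kidneys and -1.48, -1.71 and -1.55 in ClipR-14 kidneys, against -1.90 and -2.16 in sham kidneys and -1.63 in the untreated kidney. It put the fall at 4.01-fold (-2.002 ± 0.153) and the difference between ClipR-14 and Clip kidneys at 4.99-fold (2.32 ± 0.15). The ClipR-14 arrays of this probe overlapped the control arrays. Within slides the fall with the first probe was -1.52, -1.18 and -1.93 on slides 1, 2 and 3, and ClipR-14 exceeded Clip by 2.01, 1.94 and 2.14.

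Markers of the segments in which EP3 is known are given beside these values. All 4 thick ascending limb markers (Slc12a1, Umod, Kcnj1 and Cldn16) were lower in Clip than in control kidneys, with summed levels of 147.3 to 181.7 in Clip, 350.5 to 374.7 in ClipR-14 and 301.9 to 347.8 in control kidneys. Umod, the brightest, set most of this sum and fell 1.72-fold, while Slc12a1 fell 11.4-fold, Kcnj1 3.23-fold and Cldn16 1.73-fold. Of the 6 collecting duct markers 4 were lower and 2 did not pass, with sums of 16.7 to 20.5 in Clip, 64.2 to 72.7 in ClipR-14 and 58.2 to 78.6 in control kidneys. No member of either list passed between ClipR-14 and control kidneys. The part of these segments in the Ptger3 values was not tested.

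Ptger4 encodes the EP4 receptor, which raises cyclic AMP and is known in glomeruli, vessels and immune cells. Its level was -3.25, -2.96 and -2.63 in Clip kidneys and -3.93, -4.19 and -3.77 in ClipR-14 kidneys, against -4.16 and -5.04 in sham kidneys and -4.45 in the untreated kidney. The probe was well above background on all 3 Clip arrays, 1 ClipR-14 array and 0 control arrays. Clip arrays were above all others. Each control array was set to its own value or to its dimmest signal well above background, whichever was higher. Against these, Ptger4 was at least 2.47-fold higher in Clip than in control kidneys. That bound holds for the main background subtraction only. The fitted log2 difference of Ptger4, which rests on unmeasured control values, was 1.60 ± 0.24 (limma, adjusted p = 0.000767). With normexp it was 0.91 (limma, adjusted p = 0.0157). In ClipR-14 kidneys Ptger4 was lower than in Clip kidneys by a fitted -1.01 ± 0.24 (limma, adjusted p = 0.0104), with 1 of 3 ClipR-14 arrays measured.

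Of the 7 macrophage and monocyte markers tested (Cd68 had no matched probe), 6 passed upward in Clip kidneys, and their summed level was 27.8 to 31.1 in Clip, 11.3 to 14.1 in ClipR-14 and 6.95 to 9.15 in control kidneys. Among the 6, Lyz2 and Ccr2 were above background on 0 control arrays, so their calls rest on unmeasured control values. Podocyte markers went the other way, with 3 of 4 lower and sums of 1.93 to 2.29 in Clip, 2.73 to 3.09 in ClipR-14 and 2.74 to 3.95 in control kidneys. The part of either cell type in the Ptger4 values was not tested.

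The start regions of Ptger3 and Ptger4 are shown because these 2 receptors for the same ligand changed in opposite directions during obstruction. Each runs from 250 bases before to 50 bases after an annotated start, 5′ to 3′ on the gene's strand, from RefSeq on GRCm38.p6. Ptger3 is chr3:157566626-157566925 on the plus strand, and Ptger4 is chr15:5244138-5244437 on the minus strand. Capitals mark the GC box GGGCGG, read as CCGCCC where it lies on the opposite strand, and the CCAAT box.
Ptger3: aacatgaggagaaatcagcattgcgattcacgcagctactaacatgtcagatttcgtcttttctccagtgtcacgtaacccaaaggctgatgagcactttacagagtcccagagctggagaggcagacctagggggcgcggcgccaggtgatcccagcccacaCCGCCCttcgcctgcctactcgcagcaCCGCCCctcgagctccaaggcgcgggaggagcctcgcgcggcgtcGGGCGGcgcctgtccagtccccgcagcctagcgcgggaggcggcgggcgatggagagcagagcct
Ptger4: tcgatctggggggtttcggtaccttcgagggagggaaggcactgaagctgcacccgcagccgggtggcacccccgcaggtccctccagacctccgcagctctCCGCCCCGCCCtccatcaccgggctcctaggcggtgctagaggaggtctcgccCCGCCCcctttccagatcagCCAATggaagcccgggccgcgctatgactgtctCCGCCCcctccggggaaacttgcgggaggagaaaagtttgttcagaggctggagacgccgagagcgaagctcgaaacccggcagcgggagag
The Ptger3 region held 3 GC boxes, between -87 and -15 from the start. The Ptger4 region held 4, between -148 and -42, a pair of them overlapping, and 1 CCAAT box at -75. Over the 32851 promoters of the same length, 35.7% held a GC box and 37.4% a CCAAT box on either strand. Neither region held TATAAA, TGACGTCA (the cyclic AMP response element), TGANTCA (an AP-1 site) or TTGCNNAA (a C/EBP site), which 13.6%, 1.79%, 7.81% and 10.8% of promoters held. These are matches of letters only.

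Hpgd encodes 15-hydroxyprostaglandin dehydrogenase, the first step of prostaglandin E2 inactivation. Its level was -1.46, -1.19 and -1.32 in Clip kidneys and -0.59, -0.62 and -0.55 in ClipR-14 kidneys, against -1.12 and -1.02 in sham kidneys and -0.61 in the untreated kidney. The Clip arrays were the lowest and the ClipR-14 arrays lay close together. Hpgd fell 1.32-fold in Clip kidneys against control (-0.40 ± 0.14; limma, adjusted p = 0.0413). This call was lost in 13 of the 19 alternatives, among them normexp background correction (-0.14, adjusted p = 0.521), the replicate block (adjusted p = 0.0853), the exclusion of the first Clip kidney (-0.34, adjusted p = 0.130) and sham kidneys alone as control (-0.25, adjusted p = 0.0890). The other probe read -2.10, -2.41 and -1.92 in Clip kidneys, against -2.06 and -2.03 in sham kidneys and -1.35 in the untreated kidney, which overlapped, and its change of -0.33 ± 0.22 did not pass (limma, adjusted p = 0.260). ClipR-14 kidneys were 1.67-fold above Clip kidneys (0.74 ± 0.14; limma, adjusted p = 0.00341), and 0.33 above them with normexp (adjusted p = 0.177).

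**Figure D2:**
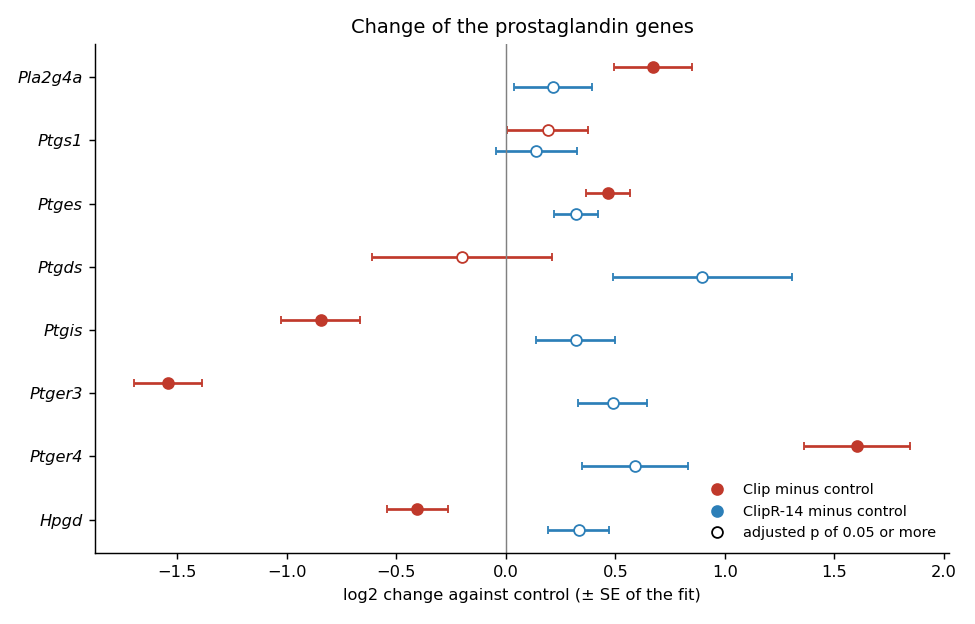
Log2 change against control (horizontal axis) of the 8 prostaglandin genes tested, for Clip and ClipR-14 kidneys, with bars of 1 SE from the fit over 9 arrays. Filled points passed the threshold. Clip points lie from -1.54 (Ptger3) to 1.60 (Ptger4), while all 8 ClipR-14 points are open and above 0. The Ptger4 control arm was not above background on any array.

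The second question was how far the kidneys differed from controls 12 days after the clip had been removed. None of the 8 prostaglandin genes passed between ClipR-14 and control kidneys (limma, adjusted p from 0.124 to 0.695), where 1.83% of all genes passed. At an unadjusted p under 0.05 there were 4 of the 8 (Ptges, Ptger3, Ptger4 and Hpgd) and 3811 of the 17740 genes. All 8 fitted changes were above 0, that of Ptger4 resting on unmeasured control values, with a median of 0.33 against -0.01 over all genes. Their sizes ran from 0.14 (Ptgs1) to 0.90 (Ptgds). In 2 of the 8, Ptges and Ptger3, the ClipR-14 arrays lay above all control arrays, while 27.2% of all genes had arms that did not overlap. The SE of these changes was 0.10 to 0.41 per gene, and a change no larger than its SE could not be shown. The adjusted p also depends on how many genes changed, with 1.83% of all genes called here and 48.9% in Clip. Hpgd passed in Clip at -0.40 ± 0.14, while Ptges at 0.32 ± 0.10 and Ptger3 at 0.49 ± 0.16 did not pass in ClipR-14. A call in one comparison and none in the other is therefore not a measure of which change is better supported.

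The Clip and ClipR-14 comparisons share the same 3 control kidneys, so their values are set side by side only. Of the 3 genes higher in Clip kidneys, Pla2g4a was 0.67 above control in Clip and 0.21 in ClipR-14, and Ptges 0.47 and 0.32. For Ptger4, with no control array above background, only the bound of 2.47-fold in Clip is given here. Of the 3 lower in Clip kidneys, Ptger3 was at -1.54 in Clip and 0.49 in ClipR-14, Hpgd at -0.40 and 0.33, and Ptgis at -0.84 and 0.32. All Clip arrays below and all ClipR-14 arrays above every control array was seen for Ptger3, and for 204 genes, or 1.15%, of all tested.

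The third comparison set ClipR-14 against Clip kidneys directly. Across all genes 41% passed, 23.6% higher and 17.4% lower in ClipR-14 kidneys (limma, adjusted). Of the 8 prostaglandin genes, 3 were higher (Ptger3, Hpgd and Ptgis), 1 was lower (Ptger4) and 4 did not pass. For 7 of the 8, all but Ptgs1, no ClipR-14 array lay in the Clip range, as for 54.8% of all genes. Ptger4, kept by the filter only through its Clip arrays, adds no support to either count. Pla2g4a differed by -0.46 ± 0.18 (limma, adjusted p = 0.0708), and passed with slide as a block (adjusted p = 0.0279), without the untreated kidney (adjusted p = 0.0478) or without the third ClipR-14 kidney (-0.63, adjusted p = 0.0201). It stayed uncalled in 14 alternatives, with a limma adjusted p of up to 0.205 with single arrays left out.

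**Figure D3:**
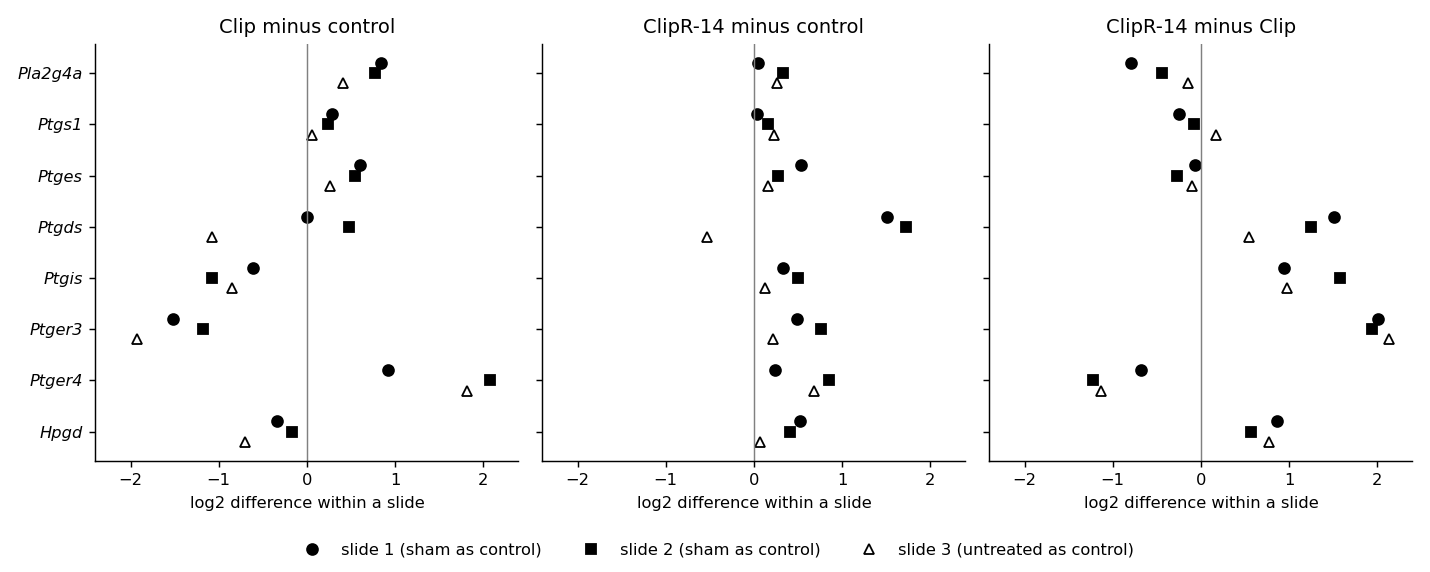
Difference between 2 arrays of the same slide (horizontal axis, log2) for each of the 8 genes, in the 3 comparisons, with 1 point per slide. Slides 1 and 2 have a sham kidney as control and slide 3 the untreated kidney. The Ptger4 control values are not above background, so its distances from 0 against control are not measured sizes. In the left panel all 3 points of Pla2g4a, Ptges and Ptger4 lie above 0 and all 3 of Ptgis, Ptger3 and Hpgd below 0, while Ptgds runs from -1.08 to 0.48.

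Within slides, every gene called in the Clip comparison had the same direction on all 3 slides. This follows from arms that do not overlap and is not a separate check, so only the sizes are of use. Pla2g4a differed by 0.84, 0.77 and 0.41 on slides 1, 2 and 3, and Ptges by 0.60, 0.54 and 0.26. Both were smallest on slide 3, where the untreated kidney was the control. Ptgis differed by -0.61, -1.08 and -0.84, and Hpgd by -0.34, -0.17 and -0.71. The sizes of the Ptger4 differences are not given, because its probe was not well above background on any control array. For Ptgds the slides disagreed in sign, and ClipR-14 minus control was 1.51 and 1.72 on slides 1 and 2 and -0.54 on slide 3.

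The genes whose profiles over the 9 arrays lay nearest to a prostaglandin gene were searched among 13008 genes with a symbol, after each gene had been centred on its own control mean. Nearness is the root mean square difference on the log2 scale, and every point shares the 9 arrays and their scaling. Nearest to Ptger3 were Ranbp3l (0.103), Kcnn2 (0.196) and Irs1 (0.207). Nearest to Ptger4 were Cd24a (0.215), Tnfrsf9 (0.219) and Col1a2 (0.232), and nearest to Ptgis were Ltbp4 (0.128), Rida (0.128) and Kcnj8 (0.137). The Ptger4 profile is centred on control values not above background, so its neighbours rest on unmeasured values. Hpgd lay nearest to Mitf, Gramd4 and Slc35g1 (0.098 to 0.122), and Pla2g4a to Oas1c, Tspan8 and Hsd3b7 (0.096 to 0.117). Ptgs1 lay nearest to Dchs1, Specc1l and Zfp821 (0.055 to 0.079). Ptgds had no near neighbour by the same measure, with Lyzl4 at 0.289, Nhlrc1 at 0.373 and Cpxm2 at 0.381.

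The rest of arachidonate metabolism was read from 87 further genes in 6 lists, of which 65 could be tested. Between Clip and control kidneys 19 of the 65 were higher, 23 lower and 23 did not pass, so 64.6% were called where 48.9% of all genes were, with a median change of -0.33 against -0.09. Between ClipR-14 and control kidneys 1 of 65 passed, or 1.54% against 1.83%. Between ClipR-14 and Clip kidneys 25 were higher, 14 lower and 26 did not pass, or 60% called against 41% of all genes.

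Among the other prostanoid synthases 2 of 8 were higher in Clip kidneys, 2 lower and 4 did not pass. Akr1b8, an aldo-keto reductase, had a level of 4.93 to 5.02 in Clip kidneys, 1.78 to 2.22 in ClipR-14 kidneys and 1.09 to 1.58 in control kidneys, a 12.2-fold rise in Clip (3.60 ± 0.16; limma, adjusted p = 2.26e-06). The carbonyl reductase Cbr3 rose 3.17-fold in Clip kidneys (1.67 ± 0.10; limma, adjusted p = 8.03e-06) and was the 1 gene of the 65 that passed in ClipR-14 kidneys, at 0.80 above control (adjusted p = 0.0212). That call was lost with normexp (0.68, adjusted p = 0.175). Ptges2, a constitutive prostaglandin E synthase, fell 1.75-fold in Clip kidneys (-0.81 ± 0.09; limma, adjusted p = 0.000176), while Ptges rose. Akr1c18, which can form prostaglandin F2 alpha, fell 2.05-fold (-1.04 ± 0.27; adjusted p = 0.0116). Ptges3 (0.13), the thromboxane synthase Tbxas1 (-0.07), Akr1b3 (0.17) and Prxl2b (-1.44, adjusted p = 0.0503) did not pass. Hpgds, the other prostaglandin D synthase, was too dim to enter the tests, and Cbr1 had no matched probe.

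Of the 5 other prostanoid receptors tested, 1 passed in Clip kidneys. Ptgfr, the receptor of prostaglandin F2 alpha, had a level of -1.19 to -0.84 in Clip kidneys, 0.42 to 0.74 in ClipR-14 kidneys and 0.47 to 0.75 in control kidneys. It fell 3.12-fold in Clip kidneys (-1.64 ± 0.14; limma, adjusted p = 3.35e-05), and ClipR-14 and control arrays overlapped. The prostacyclin receptor Ptgir (0.33), the thromboxane receptor Tbxa2r (-0.49), Ptgdr2 (-0.44) and Pparg (-0.23) did not pass against control. Ptger2, which encodes EP2, and Ptgdr were not above background on any array.

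**Figure D4:**
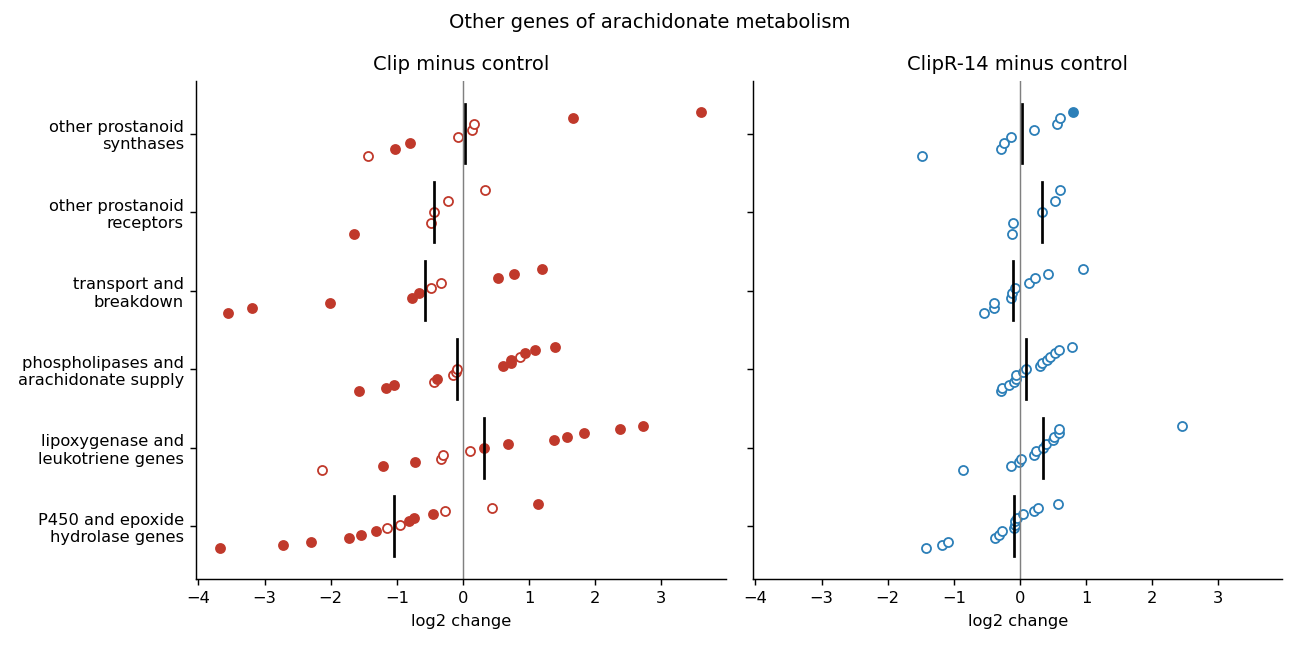
Log2 change against control (horizontal axis) of the 65 further genes of arachidonate metabolism in 6 lists, for Clip kidneys (left) and ClipR-14 kidneys (right). Each point is 1 gene, filled where it passed the threshold, and the bar is the list's median. In Clip kidneys 42 points are filled, in ClipR-14 kidneys 1.

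Among transport and breakdown genes 3 of 10 were higher and 5 lower in Clip kidneys. The prostaglandin transporter Slco2a1 rose 2.29-fold (1.198 ± 0.105; limma, adjusted p = 4.17e-05) and Slco4a1 1.70-fold (0.77 ± 0.19; adjusted p = 0.0102). The organic anion transporters Slc22a8 and Slc22a7, which in proximal tubule also carry prostaglandins, fell 11.8-fold (-3.56 ± 0.42; limma, adjusted p = 0.000204) and 9.16-fold (-3.20 ± 0.18; adjusted p = 5.82e-06). All 4 proximal tubule markers were lower as well, with summed levels of 179.1 to 220.8 in Clip, 398.1 to 556.9 in ClipR-14 and 458.8 to 537.9 in control kidneys, and their part in these falls was not tested.

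Of 15 genes of phospholipases and arachidonate supply, 6 were higher and 4 lower in Clip kidneys. Anxa1, which encodes annexin A1, an inhibitor of phospholipase A2, rose 2.63-fold (1.39 ± 0.12; limma, adjusted p = 4.36e-05). The secreted phospholipase Pla2g2e was at least 1.09-fold higher, since it was not above background on any control array (adjusted p = 0.0412, and 0.120 with normexp). By that bound it does not outrank Pla2g15, which rose 1.90-fold. Mgll, the monoacylglycerol lipase, fell 2.97-fold (-1.57 ± 0.24; adjusted p = 0.000812). Pla2g7, which inactivates platelet-activating factor, fell 2.24-fold (-1.16 ± 0.18; adjusted p = 0.00092), and by 0.30 with normexp (adjusted p = 0.372).

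Of 13 lipoxygenase and leukotriene genes, 7 were higher and 2 lower in Clip kidneys. Alox5ap, the protein that presents arachidonic acid to 5-lipoxygenase, rose 5.16-fold (2.37 ± 0.14; limma, adjusted p = 7.92e-06). Cysltr1, a cysteinyl leukotriene receptor, was at least 2.77-fold higher in Clip kidneys, with 0 control arrays above background (adjusted p = 0.0119). By that bound it does not outrank Ltb4r1, a leukotriene B4 receptor, which rose 3.54-fold. Alox12 fell 2.30-fold (-1.205 ± 0.303; adjusted p = 0.0107, and 0.0614 with normexp) and Mgst3 1.66-fold (-0.73 ± 0.10; adjusted p = 0.000469). The macrophage markers given with Ptger4 rose in the same kidneys, and their part was not tested.

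Of 14 cytochrome P450 and epoxide hydrolase genes, 1 was higher and 9 lower in Clip kidneys. Cyp4f16 rose 2.19-fold (1.13 ± 0.17; limma, adjusted p = 0.000855). Cyp4f14, known as a leukotriene B4 hydroxylase, fell 6.61-fold (-2.72 ± 0.18; adjusted p = 1.20e-05), and by 0.61 with normexp (adjusted p = 0.177). Cyp4f15 was at least 3.29-fold lower, since no Clip array was above background (adjusted p = 0.000135), and its change was -0.02 with normexp. By that bound its rank is not firm, and Cyp2j9 fell 3.29-fold. Cyp2c29 had a fitted fall of 4.93-fold (limma, adjusted p = 0.0104). Only 1 of its 3 Clip arrays was above background, and its change was 0.36 with normexp.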

How the data were processed

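Total RNA of 9 whole left kidneys (500 ng each) was labelled with Cy3 and measured on single-colour Agilent arrays, per the labels. Per the file headers the array design was 014868 and Feature Extraction 10.7.3.1 turned each spot into a background-subtracted intensity. The deposited intensity had not been scaled between arrays. Other deposited columns are 0 or 1 flags that mark saturation, outliers and signal well above background, and no spot was saturated. The table of log2 values that the authors deposited was not used: of its 8142 rows with values, 8136 lay within 0.02 (log2, root mean square) of a probe other than the one named and 0 of 8065 near their own.

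Levels are log2 ratios of a probe's intensity to the 75th percentile on its array. Repeated spots were averaged without outlier-flagged ones. Probes were named by accession through RefSeq (26690 of 41174). Those well above background on at least 3 of 9 arrays were kept (23541, after 21 lost to outlier flags), the brightest standing for each gene, which left 17740 genes. An arm in which no array was above background has only a bound, written as "at least". It takes, on each array of that arm, the higher of the probe's own value and the lowest signal well above background. The bound holds for the main background subtraction only, and an adjusted p beside it is that of the fit and does not test the bound. limma 3.58.1 in R 4.3.3 fitted 3 arms over 9 arrays, with Benjamini-Hochberg adjustment over all genes and a threshold of 0.05. Errors are standard errors of that fit, n = 3 per arm. The fit was run on simulated data with independent arrays and few changed genes. Those data had no likeness between arrays of a slide, so the run does not test the calls under the conditions met here. The number of arrays limits the precision, and where separate animals are not stated p-values measure the spread between these samples.

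The genes, lists and tests were chosen with earlier results of these data known. All 10 prostaglandin genes are named, as is every measured gene of the other synthases and receptors, the 2 largest fitted rises and falls past the threshold in each further list (the rank of a gene with only a bound is not firm, and a measured gene was then added after its values were seen), and the 3 nearest profiles per gene, those of Ptges not being reported here.

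Deviations from the arm means correlated at 0.161 to 0.281 between arrays of the same slide (9 pairs) and at -0.239 to 0.00290 between slides (18 pairs). Equal replicate numbers of Clip and ClipR-14 lie on the same slide and correlated at 0.220 to 0.269. The untreated kidney, numbered 1 but on slide 3, correlated at -0.209 with the arrays of its number, so the numbers do not pair all arrays. Alternatives were background correction, normalization, the dim-probe filter, the choice of probe, slide and replicate blocks, the 2 arms alone, sham alone as control, and each array left out.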

Additional observations from a re-analysis of the deposited data

Results flagged for a closer look

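Ptger3 was the 1 gene of the 8 tested whose Clip and ClipR-14 kidneys lay on opposite sides of every control kidney. Clip levels were -0.18 to -0.05 and ClipR-14 levels 1.82 to 1.98, against 1.13 to 1.77 in control kidneys. The difference between ClipR-14 and Clip kidneys, 2.03 on the log2 scale, was tested directly (limma, adjusted p = 3.38e-05). The excess of ClipR-14 over control kidneys did not pass (adjusted p = 0.132), and with the other Ptger3 probe those 2 arms overlapped. Both comparisons share the control kidneys.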

How the results depend on the processing

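Of the 6 calls between Clip and control kidneys, those of Pla2g4a, Ptges and Ptger3 kept their direction and passed in all 19 alternatives. So did that of Ptger4, but each of its fits rests on control values not above background, so this adds no support. Hpgd lost its call in 13, and Ptgis changed sign with normexp (0.36, and -0.27 for ClipR-14 against Clip). Of uncalled changes, Ptgs1 in Clip turned to -0.0001 with normexp, and Ptgds in Clip to 0.091 with the replicate block and 0.20 with sham kidneys alone or without the untreated kidney (-0.59 to 0.20 with single arrays left out). Ptgs1 in ClipR-14 against Clip turned to 0.10 with normexp and ran from -0.24 to 0.068 with single arrays left out, above 0 without Clip replicate 1 or 2 or ClipR-14 replicate 3. The causes were not tested. Among all genes, Clip against control gave 8676 calls, 5626 with normexp and 7147 to 8605 with single arrays left out. ClipR-14 against Clip gave 7270 calls, 4144 with normexp and 13597 with no filter on dim probes. ClipR-14 against control gave 325 calls. It gave 1 with normexp, 114 with quantile normalization, 12 with no dim-probe filter, 1163 with slide as a block, 203 with the replicate block, 0 with the arrays of those 2 arms alone, and 2 to 343 with single arrays left out. It is thus the least steady count. For the prostaglandin genes it gave 0, and 1 (Ptger3) with sham kidneys alone, the range with single arrays left out being 0 to 1. For the 65 wider genes it gave 1, against 0 with normexp, no filter or the 2 arms alone, 2 with a stricter filter or sham kidneys alone, 5 with slide as a block, and 0 to 2 with single arrays left out. With the replicate block, whose numbers do not pair all arrays, Ptgds in ClipR-14 against Clip passed (adjusted p = 0.0308) and Hpgd in Clip did not (adjusted p = 0.0853), and no other of the 8 genes changed its call. The normexp fit used median signals, chosen after the files were seen, and the planned version on mean signals was not run. Dim probes (Ptgs2, Ptger4, Ptgis) are limited by signal over background. The detection limit was higher on every ClipR-14 array than on any other array, and its part in the values of dim probes was not tested.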

Other observations

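Some markers of interstitial fibroblasts and of macrophages were higher in ClipR-14 than in control kidneys. Nearly all calls of this comparison, over all genes, were lost with normexp. Of 6 fibroblast markers, 4 passed upward (Pdgfra, Pdgfrb, Col1a1 and Col3a1; limma, adjusted), where 1.46% of all genes were higher. Their summed level over the list was 107.5 to 132.6 in Clip, 40.2 to 56.4 in ClipR-14 and 20.9 to 28.6 in control kidneys. Of 7 macrophage and monocyte markers, 3 passed upward (Cd14, Fcgr1 and Ccr2) and 4 did not. Ccr2 was above background on 2 ClipR-14 arrays and 0 control arrays, so its call adds no support and its change is not a measured size. With normexp none of these 7 fibroblast and macrophage calls passed (limma, adjusted p from 0.153 for Col3a1 to 0.953 for Ccr2), and the fitted change of Ccr2 was 0.29 in place of 2.398. Mast cells, a known source of prostaglandin D2, could not be followed: of 6 markers, 5 were not above background on any array and Kit had no matched probe.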
